A study of Mus musculus with 2 samples.

Results

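The 9 genes described here are the members of the let-7 microRNA family that lie away from any miR-99, miR-100 or miR-125 gene, namely Mirlet7g, Mirlet7i, Mirlet7b, Mirlet7c-2, Mirlet7d, Mirlet7a-1, Mirlet7f-1, Mirlet7f-2 and Mir98. They were picked by symbol in the GENCODE M21 annotation, out of 2202 miRNA genes in the count files, and the rule itself uses no levels. The set was chosen, however, with earlier results of these data known. All 9 were found. Small RNA was sequenced from the adrenal gland of male mice of the F1 hybrid B6CASTF1/J, 14 days after birth, and the design holds 1 group with no contrast. Its 2 libraries, numbered biological replicates 2 and 1, were made from separate biosamples that each name 3 males under 1 common donor record. Whether the adrenals of those animals were pooled is not stated in the labels, so spreads between the libraries may be technical as well as biological.

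let-7 was discovered in worms as a regulator of developmental timing, and in mammals its family accumulates as tissues mature. The mature RNA guides silencing of transcripts that carry a match to its seed, among them Lin28a, Hmga2 and Igf2bp mRNAs of growing tissues. LIN28 proteins in turn bind the terminal loop of let-7 precursors and block their maturation, so the family is controlled after transcription as well as at its many loci. The let-7 genes next to miR-99, miR-100 and miR-125 sit in ancient clusters with those miRNAs, whereas the genes described here are transcribed from other loci, on their own or beside each other.

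The sequences show how alike these genes are, which bears on what a read can be assigned to. The 5p arm is the one that carries the let-7 seed, bases 2 to 8, printed here in capitals from the mature sequences of RefSeq on GRCm38.p6, the assembly also called mm10. All 9 members matched that table with a hairpin and both arms. The 9 genes encode 8 different 5p sequences, since Mirlet7f-1 and Mirlet7f-2 encode the same one.
mmu-let-7g-5p: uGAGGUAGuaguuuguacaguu
mmu-let-7i-5p: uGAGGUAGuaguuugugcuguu
mmu-let-7b-5p: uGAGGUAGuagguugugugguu
mmu-let-7c-5p: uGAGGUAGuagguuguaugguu
mmu-let-7d-5p: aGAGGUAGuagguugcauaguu
mmu-let-7a-5p: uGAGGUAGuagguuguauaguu
mmu-let-7f-5p: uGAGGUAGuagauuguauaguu
mmu-miR-98-5p: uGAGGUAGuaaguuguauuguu

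The GC content of the 5p arms ran from 31.8% in let-7f-5p and miR-98-5p to 45.5% in let-7b-5p. All 8 sequences share 1 seed, and 15 of their 22 positions hold the same base in each. Counted from 1 at the 5′ end and read against let-7a-5p, let-7c-5p differed by A19G and let-7f-5p by G12A. let-7b-5p differed by A17G and A19G, let-7g-5p by G12U and U18C, and miR-98-5p by G11A and A19U. let-7d-5p differed by U1A and U16C, so it was the one among the members without a U at its first base. The farthest was let-7i-5p, with G12U, A17G, U18C and A19U. Outside the members, the table lists this seed for the let-7 genes Mirlet7c-1, Mirlet7e and Mir7k and for Mir1961. Mirlet7a-2 is listed there with its 3p arm alone, but its hairpin holds let-7a-5p and so this seed too. Mir1961 had no count in either library, which allows up to 0.866 CPM in replicate 2 and 0.992 CPM in replicate 1 at 3 counts.

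The members held 18.9% of all miRNA counts in replicate 2 (95% exact interval 18.9 to 19.0) and 19.7% in replicate 1 (19.6 to 19.7), or 19.3% ± 0.524 (SD, n = 2). All levels here are CPM, a gene's sense-strand counts scaled to a common total over all miRNA genes, and intervals cover counting error only. Reads were taken to come from mature arms of 21 or 22 bases in hairpins of 83 to 108 bases. CPM was therefore compared between genes without division by length. All 9 members reached 2 CPM in both libraries, against 364 of the 2202 genes (16.5%), and all 9 had a mean of 100 CPM or more. The fewest counts behind any member's value were 361. In bulk tissue, fewer cells of a type and less RNA per cell cannot be told apart.

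**Figure D1:**
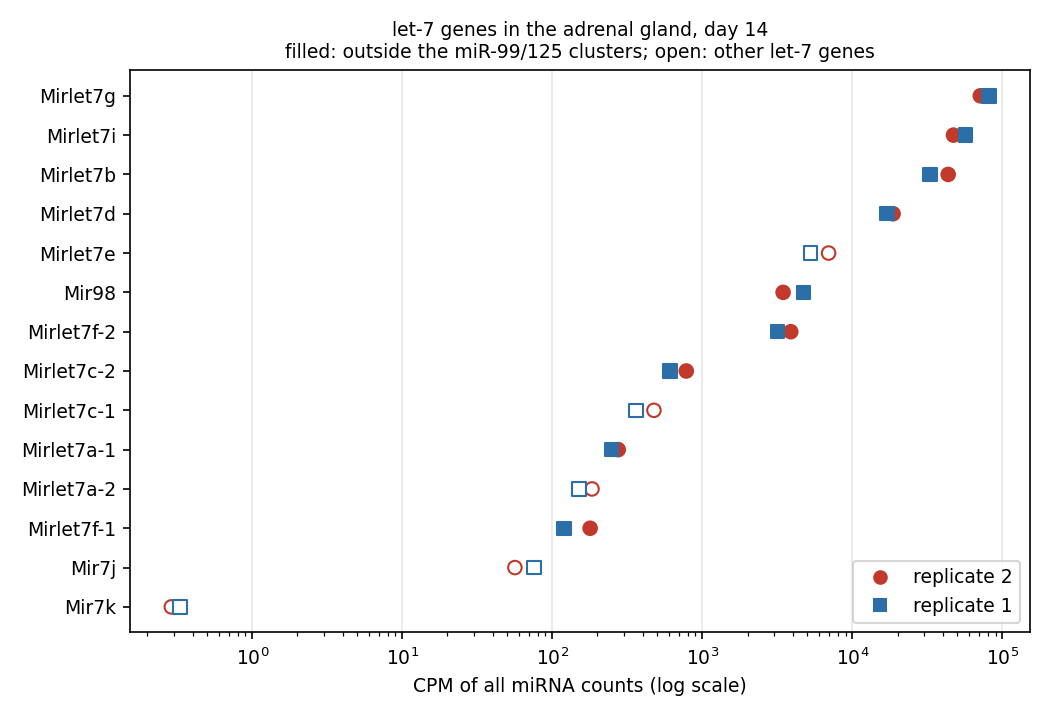
Levels of the let-7 genes in CPM on a log axis, circles for replicate 2 and squares for replicate 1, filled for the 9 members and open for the other let-7 genes. The members spanned from 149 CPM for Mirlet7f-1 to 76270 CPM for Mirlet7g in the mean, and the libraries lay within 2-fold of each other at each of the 9.

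Mirlet7g, in an intron of Wdr82, a subunit of a histone methyltransferase complex, was the highest member. It lies at chr9:106178840-106178927 on the plus strand of mm10. It had 71269 CPM in replicate 2 and 81272 CPM in replicate 1, or 76270 ± 7073, and ranked 3rd and 2nd among all miRNA genes. Mirlet7i, at chr10:122985640-122985724 on the minus strand, lies in an exon of D630033A02Rik, which is annotated as a transcribed processed pseudogene. It had 47210 CPM in replicate 2 and 56572 CPM in replicate 1, 51891 ± 6620 in the mean, at ranks 5 and 4. Both stand alone: the nearest miRNA gene, Mir135a-1, lay 24627 bases from Mirlet7g and had 1 count in replicate 2 and 2 in replicate 1, and no miRNA gene lay within 50000 bases of Mirlet7i. Together this pair made up 62.6% of the members' counts in replicate 2 and 70.1% in replicate 1.

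Mirlet7b and Mirlet7c-2 share a locus on the plus strand of chromosome 15 in exons of the long non-coding RNA Lncppara, 622 bases apart. Mirlet7b, at chr15:85707319-85707403, had 43514 CPM in replicate 2 and 32874 CPM in replicate 1, 38194 ± 7524 in the mean, and so was higher in replicate 2. Mirlet7c-2, at chr15:85706603-85706697, had 781 CPM in replicate 2 and 609 CPM in replicate 1, 695 ± 122. Mirlet7b took 98.2% of the counts of the locus in both libraries, with intervals of 98.2 to 98.3 in replicate 2 and 98.1 to 98.3 in replicate 1. The arms of Mirlet7c-2 also occur in other hairpins, as given below, so its level and this share are uncertain. The quotient of Mirlet7b to Mirlet7c-2 was 55.7 (53.6 to 57.9) in replicate 2 and 54.0 (51.6 to 56.6) in replicate 1, so their balance did not differ beyond counting error while both levels moved.

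Mirlet7a-1, Mirlet7f-1 and Mirlet7d lie on the minus strand of chromosome 13 in exons of the lincRNA 6720427I07Rik, in that order along the transcript. Mirlet7d, at chr13:48536012-48536114, had 18677 CPM in replicate 2 and 17072 CPM in replicate 1, 17874 ± 1135, and was 15th of all genes in each. Its neighbours were far lower. Mirlet7a-1, at chr13:48538179-48538272, had 275 CPM in replicate 2 and 247 CPM in replicate 1, 261 ± 19.6. Mirlet7f-1, at chr13:48537829-48537917, had 179 CPM in replicate 2 and 119 CPM in replicate 1, 149 ± 41.9. Mirlet7d thus took 97.6% of the locus in replicate 2 and 97.9% in replicate 1. Both arms of Mirlet7a-1 and the 5p arm of Mirlet7f-1 also occur in other hairpins, as given below. The levels of these neighbours, and the share of Mirlet7d, are uncertain for that reason. The quotient of Mirlet7d to Mirlet7a-1 was 67.9 (63.7 to 72.5) in replicate 2 and 69.0 (64.2 to 74.3) in replicate 1, whereas that of Mirlet7d to Mirlet7f-1 was 105 (96.6 to 113) in replicate 2 and 143 (129 to 159) in replicate 1.

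Mirlet7f-2 and Mir98 lie 786 bases apart on the plus strand of the X chromosome, in an intron of Huwe1, which encodes a ubiquitin ligase. Mirlet7f-2, at chrX:151912346-151912428, had 3885 CPM in replicate 2 and 3172 CPM in replicate 1, 3528 ± 504. Mir98, at chrX:151913214-151913321, had 3454 CPM in replicate 2 and 4722 CPM in replicate 1, 4088 ± 896. These neighbours exchanged order: the quotient of Mir98 to Mirlet7f-2 was 0.889 (0.867 to 0.911) in replicate 2 and 1.49 (1.45 to 1.53) in replicate 1. Their ranges of level overlapped, and their summed level differed little, at 7339 CPM in replicate 2 and 7893 CPM in replicate 1. The 5p arm of Mirlet7f-2 is also in the hairpin of Mirlet7f-1, as given below. The level of Mirlet7f-2, its order with Mir98 and their sum are uncertain for that reason.

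**Figure D2:**
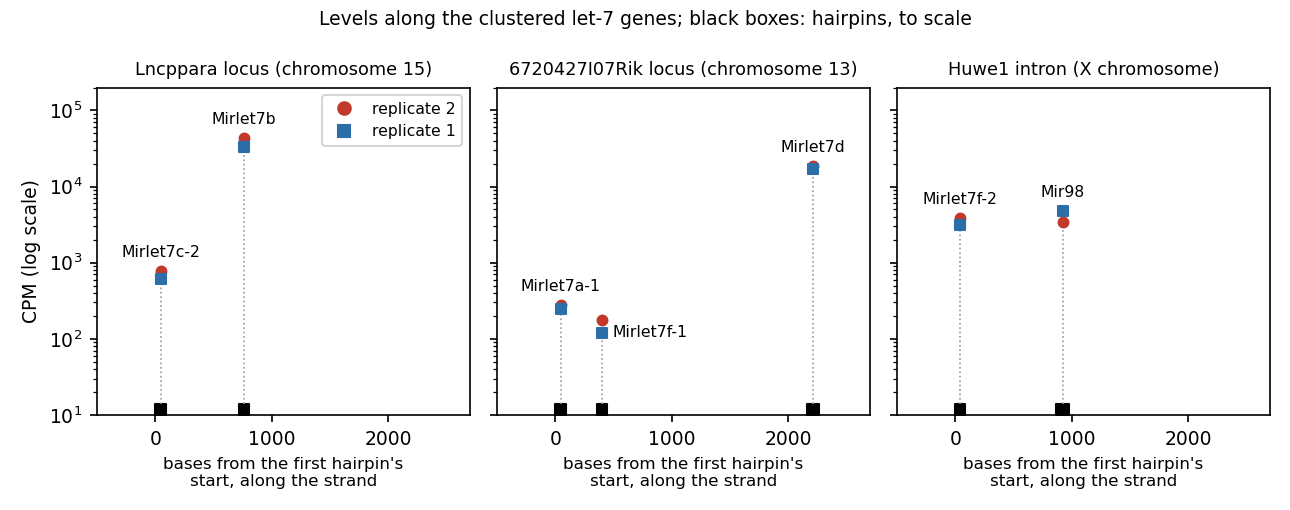
Levels in CPM on a log axis at the 3 loci with more than 1 member, placed by distance in bases from the start of the first hairpin along the strand, with circles for replicate 2, squares for replicate 1 and black boxes for the hairpins. Within the chromosome 15 and chromosome 13 loci 1 gene stood far above its neighbours, while Mirlet7f-2 and Mir98 lay within the same range. The levels of Mirlet7c-2, Mirlet7a-1, Mirlet7f-1 and Mirlet7f-2 are uncertain, since each has an arm that is also in another hairpin.

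By mean level the order was Mirlet7g, Mirlet7i, Mirlet7b, Mirlet7d, Mir98, Mirlet7f-2, Mirlet7c-2, Mirlet7a-1 and Mirlet7f-1. Each neighbouring pair in that order kept its order in both libraries, except Mir98 and Mirlet7f-2. In the ratio of their means the closest of the kept pairs was Mirlet7i over Mirlet7b, at a quotient of 1.08 (1.08 to 1.09) in replicate 2 and 1.72 (1.71 to 1.73) in replicate 1. The difference of their means, between 51891 ± 6620 and 38194 ± 7524 CPM, was smaller than the sum of those SDs. Mirlet7g over Mirlet7i was steadier, at 1.51 (1.50 to 1.52) in replicate 2 and 1.44 (1.43 to 1.45) in replicate 1. With 2 libraries no exact two-sided test over samples can go below p = 0.5, so the order of levels was not tested.

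The members differ in whether a mature arm is found in 1 hairpin or in several. Reads that map to several places are counted apart from the genes, at 29.4% of all reads in replicate 2 and 27.5% in replicate 1. The rule behind that count is not given, so reads of shared arms may be missing from the genes. For Mirlet7g, Mirlet7i, Mirlet7b, Mirlet7d and Mir98, neither arm occurs in any other annotated mouse miRNA hairpin. Those 5 genes had means of 4088 to 76270 CPM and held 97.3% of the members' counts in replicate 2 and 97.9% in replicate 1. Mirlet7c-2 and Mirlet7a-1 were at the other end, with no arm of their own. The let-7a-5p sequence is also in the hairpin of Mirlet7a-2, and let-7c-5p in that of Mirlet7c-1. Their 3p arms, shown here with bases 2 to 8 in capitals because they are the same letters at separate chromosomes, cannot be told apart either.
mmu-let-7a-1-3p: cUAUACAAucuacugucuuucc
mmu-let-7c-2-3p: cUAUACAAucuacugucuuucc

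Mirlet7c-2 and Mirlet7a-1 had means of 695 and 261 CPM and held 0.558% of the members' counts in replicate 2 and 0.435% in replicate 1. Which stretch of the hairpin the reads behind these counts came from is not known. Mirlet7f-1 and Mirlet7f-2 stood between in sequence, since they have let-7f-5p in common but each has a 3p arm that is in no other hairpin, printed in the same way.
mmu-let-7f-1-3p: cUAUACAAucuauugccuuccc
mmu-let-7f-2-3p: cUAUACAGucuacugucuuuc

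In level this pair was far apart, at 149 CPM for Mirlet7f-1 and 3528 CPM for Mirlet7f-2 in the mean. Mirlet7f-1 was also lower in the mean than Mirlet7a-1 and Mirlet7c-2. The quotient of Mirlet7f-2 to Mirlet7f-1 was 21.7 (20.1 to 23.6) in replicate 2 and 26.6 (23.9 to 29.6) in replicate 1. The counts do not separate the arms of a hairpin, and the search covered annotated hairpins on their own strand and not the genome. It took exact matches of a whole arm, while let-7b-5p is 1 substitution from let-7c-5p and let-7i-5p is 2 from let-7g-5p. How mismatches in reads were treated is not given. Among the 5 genes with both arms of their own, the longest stretch of the 5p arm found in another hairpin was 17 bases for Mirlet7g, 16 for Mirlet7i and Mirlet7b, 14 for Mirlet7d and 10 for Mir98. The part of reads left out of every gene in the order of levels was not tested, and the levels of Mirlet7a-1, Mirlet7c-2, Mirlet7f-1 and Mirlet7f-2 are uncertain for that reason.

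**Figure D3:**
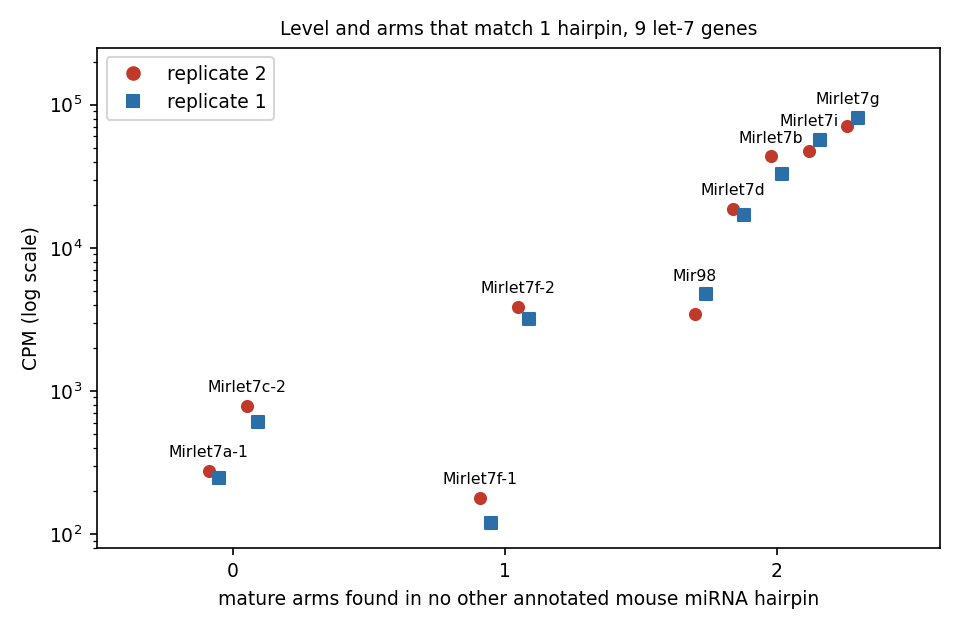
Level in CPM on a log axis against the number of mature arms found in no other annotated mouse miRNA hairpin, with circles for replicate 2 and squares for replicate 1. The 5 members with both arms of their own lay from 3454 to 81272 CPM, the 2 members with none from 247 to 781 CPM, and Mirlet7f-2 and Mirlet7f-1 far apart at 1.

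Between the libraries, the members' sum differed by little while its make-up shifted. The sum was 189244 CPM in replicate 2 and 196658 CPM in replicate 1, a ratio of 0.962 (0.959 to 0.966), which became 1.01 when Mir122, a liver miRNA that differed greatly between the libraries, was left out of the totals. Mirlet7b took 23.0% of the members' counts in replicate 2 and 16.7% in replicate 1. Mirlet7g took 37.7% in replicate 2 and 41.3% in replicate 1, and Mirlet7i 24.9% in replicate 2 and 28.8% in replicate 1. Shares within the members do not depend on the total over all miRNA genes.

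**Figure D4:**
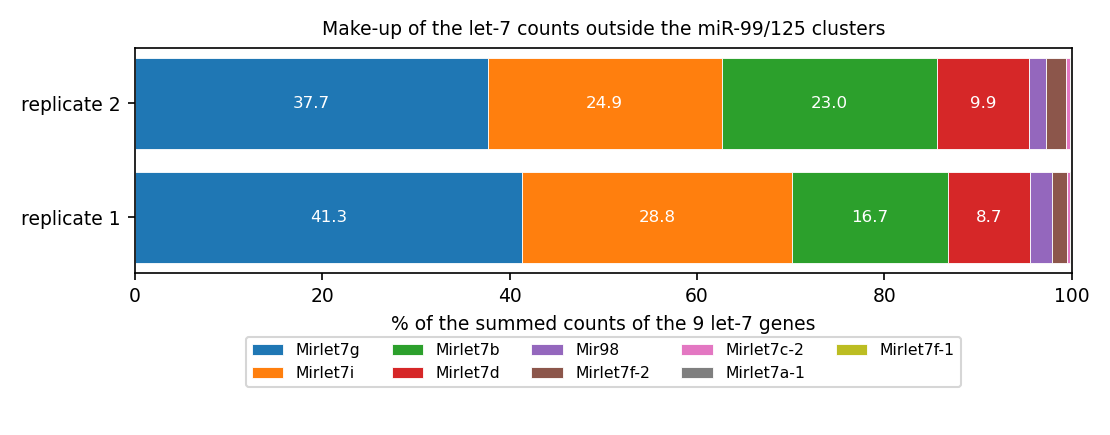
Share of each member in the summed counts of the 9 members, in percent, as stacked bars for replicate 2 (above) and replicate 1 (below). Mirlet7b held a larger part in replicate 2, at 23.0% against 16.7% in replicate 1, and Mirlet7g and Mirlet7i held smaller parts there.

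By the exact two-sided conditional binomial test with Benjamini-Hochberg adjustment over 413 genes, 5 of the 9 members were higher in replicate 2, 3 were lower and 1 did not pass. Of all 413 genes tested, 28.8% were higher and 26.6% lower, and of the 189 genes at 100 CPM or more, 43.9% were higher and 38.1% lower. The test compares these libraries, takes counting error as the sole error and says nothing of a condition, and at such depths it calls most abundant genes. Ratios are given as replicate 2 over replicate 1. Mirlet7f-1 had a ratio of 1.50 (1.31 to 1.71), Mirlet7b 1.32 (1.31 to 1.33), Mirlet7c-2 1.28 (1.21 to 1.36) and Mirlet7f-2 1.22 (1.19 to 1.26). Mirlet7d had a ratio of 1.09 (1.08 to 1.11), which turned to 0.996 with unstranded counts, where its own counts were the same and the totals differed.

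The members that were lower in replicate 2 were Mir98 at 0.732 (0.714 to 0.750), Mirlet7i at 0.835 (0.829 to 0.840) and Mirlet7g at 0.877 (0.872 to 0.882). The largest exact adjusted p among these 8 genes was 2.36e-09, for Mirlet7f-1. Mirlet7a-1, with a ratio of 1.11 (1.01 to 1.23), missed the threshold at an exact adjusted p of 0.0539 and passed it with DESeq2 size factors and with Mir122 left out of the totals. No member differed by 2-fold or more, beside 14.8% of the 189 genes at 100 CPM or more. With 9 members, a difference from that share was not tested. The median log2 ratio was 0.15 over the 9 members and 0.00061 over those 189 genes. The coefficient of variation, the SD over the mean of the 2 libraries, had a median of 14.3% over the members and 15.9% over the 189 genes.

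**Figure D5:**
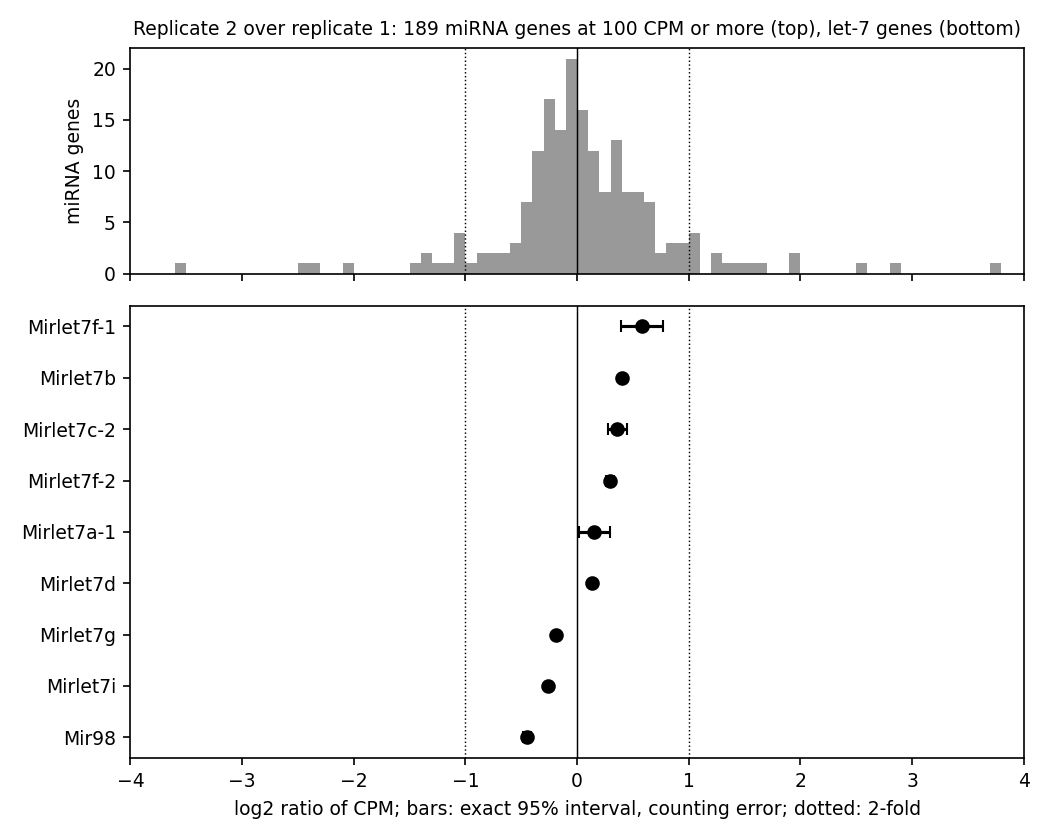
Histogram of the log2 ratio of CPM, replicate 2 over replicate 1, for 189 miRNA genes at 100 CPM or more (above), and the same ratio for each member with its exact 95% interval for counting error (below), with dotted lines at 2-fold. All 9 members lay inside the lines, 6 to the right of 0 and 3 to the left.

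The direction was shared by neighbours at some loci and not at others. Both genes of the Lncppara locus were higher in replicate 2, and their sum had a ratio of 1.32 (1.31 to 1.33). In the Huwe1 intron Mirlet7f-2 was higher and Mir98 lower, and their sum had a ratio of 0.930 (0.913 to 0.946). On chromosome 13 the sum had a ratio of 1.10 (1.08 to 1.11). The members that stand alone, Mirlet7g and Mirlet7i, were both lower, with 0.860 (0.856 to 0.863) for their sum.

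The let-7 genes beside miR-99, miR-100 and miR-125 gave a small part of the family's counts. Mirlet7e, Mirlet7c-1 and Mirlet7a-2 had 6095 ± 1200, 419 ± 80.3 and 167 ± 23.6 CPM, and the members held 96.1% of the counts of these 12 genes in replicate 2 and 97.2% in replicate 1. All 3 were higher in replicate 2, and their sum had a ratio of 1.32 (1.30 to 1.35). Of the 189 genes at 100 CPM or more, to which these 3 belong, 43.9% were higher and 38.1% lower. The let-7a-5p of Mirlet7a-2 and the let-7c-5p of Mirlet7c-1 are also in hairpins of members. The levels of Mirlet7a-2 and Mirlet7c-1, and the shares of the family, are therefore uncertain in the same way. Mir7j, the gene of mmu-let-7j, had 56.3 CPM in replicate 2 and 75.7 CPM in replicate 1, while Mir7k, that of mmu-let-7k, had 1 count in each library. Of the 7 listed partner and related genes, Mir99a, Mir99b, Mir100, Mir125a, Mir125b-1, Mir125b-2 and Mir202, 4 were higher in replicate 2, none lower, and 3 did not pass, beside 28.8% higher and 26.6% lower over all 413 genes tested. All of this list but Mir202 are among the 189 genes at 100 CPM or more, with 43.9% higher and 38.1% lower. Mir125a, a homologue of the worm timing miRNA lin-4, had 3191 CPM in replicate 2 and 1654 CPM in replicate 1, a ratio of 1.93 (1.87 to 1.99). Mir99a was the highest of the list at 17580 ± 738 CPM, close to Mirlet7d. Mir202, whose 3p arm has a seed close to that of let-7, was at 27.7 ± 3.66 CPM.

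Over 74 genes outside the family with a mean of 1000 CPM or more, Mir106b, Mir144 and Mir322 had log2 ratios nearest to that of the summed members, which was -0.06. Their log2 ratios were -0.05, -0.03 and -0.09. A likeness over 2 libraries rests on 1 difference and describes no shared pattern beyond it.

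The stretch between the mature arms, where LIN28 binds, was examined as sequence alone, since no LIN28 level is measured in these data. The letters GGAG, known as a contact of the LIN28 zinc knuckles, were searched on the strand of the hairpin, as were the letters GAU, which can overlap GGAG by its last G. GGAG was present between the arms of 6 of the 9 members, against 8.07% of 644 mouse hairpins with 2 arms in RefSeq, and GAU in 8 of the 9, against 15.7%. In Mirlet7i, Mirlet7a-1 and Mirlet7f-2 the sole GAU is the one that overlaps GGAG, so these counts are not independent. Those stretches are longer in the members, with a median of 32 bases against 16, and a longer stretch holds any short motif more often. Mirlet7g, the highest member, holds GGAG, printed in capitals, while Mirlet7b holds GAU alone. Mirlet7c-2 holds neither.
Mirlet7g: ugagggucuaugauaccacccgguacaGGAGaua
Mirlet7b: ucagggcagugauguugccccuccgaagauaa
Mirlet7c-2: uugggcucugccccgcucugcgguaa

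Members with GGAG between the arms, Mirlet7g, Mirlet7i, Mirlet7d, Mirlet7f-2, Mirlet7a-1 and Mirlet7f-1, spanned the whole range of mean levels from 149 to 76270 CPM. A match is a description of letters, and the absence of one says only that they are not in this stretch.

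Of the miRNAs that mark cell types, the neuroendocrine list, led by Mir375, was at 34282 CPM in replicate 2 and 31136 CPM in replicate 1 with 4 of 4 genes at 2 CPM or more in both. The libraries differed more in markers of other cells. Mir126a of endothelium was at 94732 CPM in replicate 2 and 155646 CPM in replicate 1, and 3 red blood cell genes summed to 19202 CPM in replicate 2 and 43959 CPM in replicate 1. Of the red blood cell genes, Mir451a had 17126 CPM in replicate 2 and 41829 CPM in replicate 1, while Mir144 did not pass the test, at a ratio of 0.980. The sum of 4 white blood cell genes was 1710 CPM in replicate 2 and 3466 CPM in replicate 1, with Mir142, Mir150 and Mir155 lower in replicate 2 and Mir223 higher, at 89.5 CPM in replicate 2 and 31.1 CPM in replicate 1. Mir122 of liver was at 49475 CPM in replicate 2 and 3786 CPM in replicate 1, and 4 kidney and gut genes summed to 345 CPM in replicate 2 and 83.6 CPM in replicate 1. In that list Mir192 and Mir194-2 were higher in replicate 2, Mir194-1 did not pass, and Mir215 was lower, at 3.75 CPM in replicate 2 and 12.6 CPM in replicate 1. Striated muscle genes reached 2 CPM in both libraries in 1 of 5, with Mir1a-1, Mir133a-1 and Mir133a-2 at 0, and pancreas genes in 0 of 2, with Mir216a at 0. Those muscle genes at 0 share a 20-base stretch with sister hairpins, so reads that map to several places may be missing from them too. The part of these cells in the members' differences was not tested. Sense miRNA counts totalled 3464837 in replicate 2 and 3024662 in replicate 1.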

How the data were processed

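MicroRNA-seq of adrenal gland was used from 1 group of 2 libraries. The authors deposited raw read counts per miRNA gene, on mm10 with GENCODE M21 per the deposited notes. For the aligner, the counter and their settings nothing was given in the sources used here. Of 3 count columns, that of the gene's own strand was used. All 2202 identifiers matched GENCODE M21. The 4 summary rows, 59.1% of reads in replicate 2 and 57.8% in replicate 1, name no gene and stayed out of totals and tests.

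Counts were scaled to CPM by the total over miRNA genes, where 1 count was 0.289 CPM in replicate 2 and 0.331 CPM in replicate 1. Shares have Clopper-Pearson intervals and ratios exact conditional intervals at 95%, which cover counting error alone and no spread between samples. Reads copied by PCR are not separate molecules, so the intervals may be too narrow even for counting error. Genes with 10 or more counts over both libraries were compared by the two-sided binomial test conditional on each gene's total, which is exact, at an adjusted p of 0.05, and the script was tested on simulated data. Members and lists were chosen with earlier results of these data known. Named genes are the members, the other let-7 genes, the partner list, miRNA genes within 50000 bases and, among genes at 1000 CPM or more, the 3 whose ratio was nearest. Alternatives were unstranded counts, totals without Mir122, members and totals without genes sharing a 20-base stretch, other limits and each library alone. Factors from DESeq2 1.42.0 and edgeR 4.0.16 (TMM), under R 4.3.3 on the deposited counts, were tried as well. All else used SciPy 1.17.1 and pandas 2.3.3 under Python 3.11.15.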

Additional observations from a re-analysis of the deposited data

Results flagged for a closer look

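Signals outside the sense counts are given as values, with no control samples to set them against. Mirlet7b had 10 counts on the opposite strand in replicate 2 and 7 in replicate 1, above the 3 counts taken as a limit. The annotation Gm24111 lies opposite Mirlet7f-1 and has no sense count, but its opposite-strand column held 619 counts in replicate 2 and 361 in replicate 1, the same numbers as the sense counts of Mirlet7f-1. Reads mapping to several places, which are counted apart from the genes, came to 29.4% for replicate 2 and 27.5% for replicate 1. The design of 2 libraries in 1 group allows neither a search for an outlying library nor a contrast of groups.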

How the results depend on the processing

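Unstranded counts moved the most values. Mirlet7f-1, Mirlet7e and Mir451a then had 0 counts in both libraries and Mir126a 12 in replicate 2 and 6 in replicate 1. The miRNA annotations Gm24111 and Gm25927 lie opposite Mirlet7f-1 and Mirlet7e, and the part of that overlap was not tested. With unstranded counts the family and the total were thus smaller, and the totals alone shifted an unchanged count by -0.14 on the log2 scale. The members' share was then 26.3%, the summed ratio 0.876, the share of the family 99.7%, and Mirlet7d in its locus 98.6%. The members higher in replicate 2 were then 3, and Mirlet7d, with unchanged counts, turned to a ratio of 0.996 through that shift. Without Mir122 in the totals the share was 19.8% and the summed ratio 1.01, and with edgeR TMM that ratio was 0.945. With genes that share a 20-base stretch left out of both the members and the total, the 5 members that remained held 22.5%. With each library alone the share was 18.9% or 19.7%. The count of members lower in replicate 2 was 3 under each alternative run, and all 9 passed limits of 1 and 10 CPM, against 8 with unstranded counts. Mirlet7a-1 changed sides of the threshold as given above. With 2 libraries depth limits little here, since each member had 361 counts or more; the number of libraries limits what the spread can show.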
